A study of Homo sapiens with 8 samples.

Results

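The clustered protocadherins were taken as every gene whose symbol begins with PCDHA, PCDHB or PCDHG, with an optional subfamily letter A, B or C, and ends in a number. This rule found 55 of the 23228 genes listed in the count data, of which 15 belonged to the alpha cluster, 18 to the beta cluster and 22 to the gamma cluster. They were measured by RNA-seq in BT-549, an established human TNBC cell line with no receptor for estrogen or progesterone and no amplified HER2. The line was treated for 24 h in 4 groups of 2 libraries each. One group received vehicle (DMSO). Another received EC359, a small-molecule inhibitor of the cytokine receptor LIFR, at 100 nM, and a further group received vorinostat, also called SAHA, a pan-HDAC inhibitor (HDACi), at 10 µM. The last group, named the combination here, received both agents at the same doses. The labels do not say that the 2 libraries of a group came from separate cultures. The study's methods mention biological replicates for the in vitro assays in general and do not name the RNA-seq there, so p-values measure the spread between these libraries, which may be technical. In a bulk culture, fewer cells that express a gene and less RNA per cell cannot be told apart.

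Protocadherins of these clusters are cadherin-like adhesion molecules that sit in the plasma membrane and bind the same isoform on an opposing cell. Each neuron switches on a few of them, and the resulting mix of isoforms lets a neurite tell itself from its neighbours. In the alpha and gamma clusters a row of variable first exons, each with a promoter of its own, is spliced to one set of constant exons that encode a common cytoplasmic tail, whereas a beta gene is made from a single large exon and has no such tail. CTCF and cohesin join a chosen promoter to a distant enhancer by a DNA loop, and DNA methylation and the chromatin protein SMCHD1 keep the others silent. The C-type genes at the end of the alpha and gamma clusters are less tied to random choice. Silencing of these clusters by long-range methylation has been described in tumors, breast cancer included.

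Most promoters of these genes carry a conserved sequence element around a CGCT core. The RefSeq promoter table (GRCh38.p14) held 47 of the 55 genes, and in the 250 bases before the start CGCT was found on either strand in 45 of 47 windows, against 64.3% of 27305 promoters of the same length. The windows of PCDHA9 and PCDHB8 held none. The stretches below were picked from the members with many reads or with differences described here, and capitals mark the CGCT. Where a window held several, the one inside GGCGCTG or CGCTGT was taken, then one inside GTCGCT, and then the one nearest the start. The first set comes from the alpha cluster.
PCDHA1, chr5:140786066-140786125, + strand: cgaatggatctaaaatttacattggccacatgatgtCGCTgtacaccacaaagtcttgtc
PCDHA10, chr5:140855821-140855880, + strand: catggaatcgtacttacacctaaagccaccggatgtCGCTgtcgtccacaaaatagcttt
PCDHA12, chr5:140875224-140875283, + strand: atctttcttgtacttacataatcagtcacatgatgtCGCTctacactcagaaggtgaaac
PCDHAC1, chr5:140926200-140926259, + strand: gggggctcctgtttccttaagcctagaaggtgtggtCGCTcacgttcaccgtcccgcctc

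The word GTCGCTG, which overlaps the core, was in 6 of 13 alpha, 0 of 14 beta and 6 of 20 gamma windows and in 2.43% of all promoters. The second set comes from the beta cluster.
PCDHB2, chr5:141094524-141094583, + strand: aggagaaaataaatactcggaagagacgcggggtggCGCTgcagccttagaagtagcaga
PCDHB9, chr5:141187054-141187113, + strand: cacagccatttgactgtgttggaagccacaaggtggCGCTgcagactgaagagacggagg

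GGCGCTG was in 11 of 14 beta, 0 of 13 alpha and 1 of 20 gamma windows and in 9.14% of all promoters. The last set comes from the gamma cluster.
PCDHGA6, chr5:141373815-141373874, + strand: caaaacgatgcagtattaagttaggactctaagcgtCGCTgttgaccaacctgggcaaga
PCDHGA7, chr5:141382629-141382688, + strand: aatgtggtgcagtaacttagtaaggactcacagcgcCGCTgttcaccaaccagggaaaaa
PCDHGB2, chr5:141359901-141359960, + strand: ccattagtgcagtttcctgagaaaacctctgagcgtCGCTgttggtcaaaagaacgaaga
PCDHGB7, chr5:141417587-141417646, + strand: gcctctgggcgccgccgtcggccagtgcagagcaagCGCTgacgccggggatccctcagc
PCDHGC3, chr5:141475860-141475919, + strand: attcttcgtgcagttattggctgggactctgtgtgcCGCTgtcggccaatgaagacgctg

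CGCTGTT was in 13 of 20 gamma, 0 of 13 alpha and 1 of 14 beta windows and in 1.81% of all promoters. The 3 longer words were chosen after the promoters had been read, overlap the core, were searched on both strands and are a description of sequence only. In the PCDHGB7 stretch the capitals do not mark the conserved element. Where the similar PCDHGB6 promoter has CGCTGTCGG, PCDHGB7 has CGCCGTCGG, and its marked CGCT lies further downstream. The 4 C-type promoters in the table had a GC content of 57.6% to 63.2%, while the 43 others lay between 30.0% and 48.8%. The median over all promoters was 58.0%.

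On GRCh37, the build that hg19 shares, all 3 clusters lay on the + strand of chromosome 5, with alpha at 140165725 to 140391932, beta at 140430959 to 140628933 and gamma at 140710081 to 140892542 (canonical transcripts of GENCODE, 51 of 55 symbols matched). The constant exons shared within a cluster covered 2869 bases of each alpha transcript and 2177 bases of each gamma transcript. A median of 46.9% of an alpha transcript and 54.4% of a gamma transcript was its own, against 100% in beta. A read inside the shared exons belongs to several genes, and such reads may have been set aside as ambiguous by the counting, whose mode the sources used here do not give. Between 0.649% and 0.850% of uniquely aligned reads were ambiguous, depending on the library. Near-identical stretches add to this. Of the 50-base windows inside a gene's own exons, a median of 8.92% in alpha, 14.2% in beta and 9.35% in gamma also occurred elsewhere in the locus, with a maximum of 47.0% in PCDHB8. The 5 C-type genes and PCDHGB3 had 0% of such windows. The more of them a gene has, the less certain its count is against its close copies.

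The libraries held between 19069450 and 24759041 counts on genes. At that depth 1 read is worth 0.0412 to 0.0514 CPM (reads scaled to a common library size by TMM), and a gene without a read in a library may have had a level of up to 0.124 to 0.154 CPM (3 reads; these limits cover counting error only). The 55 protocadherins together took 1776 and 1633 reads in the vehicle libraries, 2780 and 2121 with EC359, 1210 and 1584 with vorinostat, and 1130 and 1089 with the combination. PCDHGC3 alone held 51.8% of all these reads, PCDHB2 held 15.9% and PCDHGA6 held 7.55%. Reads were found for 51 genes. PCDHA5, PCDHA11, PCDHB1 and PCDHB18 had none in any library. The low-count filter of edgeR passed 16 of the 55 (4 alpha, 5 beta and 7 gamma genes), a share of 29.1%, while it passed 59.0% of all listed genes. The filter can pass a gene on 1 high group alone, and the members that passed are therefore not a sample of the clusters.

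The alpha cluster had few reads without vorinostat and more with it, while the gamma sum and, through PCDHB2, the beta sum were lower with vorinostat than in vehicle. The summed alpha level was 1.05 ± 0.623 CPM in vehicle and 0.591 ± 0.311 with EC359, and 4.23 ± 0.0237 with vorinostat and 3.04 ± 0.908 with the combination (mean ± SD, n = 2 libraries in this and the following sums). The 4 libraries with vorinostat, at 2.40 to 4.25 CPM, lay above the 4 without it, at 0.371 to 1.49. The summed beta level was 22.6 ± 1.63 in vehicle, 20.2 ± 3.52 with EC359, 15.9 ± 2.93 under vorinostat and 13.1 ± 3.35 when both were given. The beta ranges overlapped between EC359, at 17.7 to 22.7, and vorinostat, at 13.8 to 17.98. Without PCDHB2 the other 17 beta genes summed to 6.25 ± 0.113 CPM in vehicle and 5.96 ± 0.714 with vorinostat, which overlapped, and to 4.63 ± 0.694 when both drugs were given. The gamma sum was 56.4 ± 4.34 in vehicle, 90.3 ± 1.77 with EC359, 44.6 ± 0.653 under vorinostat and 40.6 ± 2.69 when both were given. Without PCDHGC3 the other 21 gamma genes summed to 18.6 ± 2.33, 21.3 ± 2.90, 15.8 ± 0.412 and 14.7 ± 0.239 CPM in the same order. The higher gamma sum with EC359 was therefore mostly PCDHGC3. These sums were not tested.

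**Figure D1:**
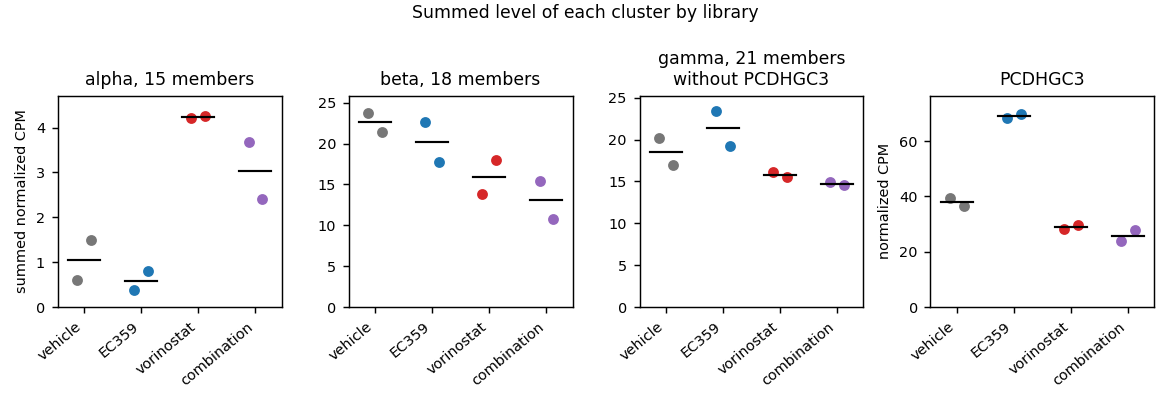
Summed normalized CPM of the alpha, beta and gamma genes and the normalized CPM of PCDHGC3 (y axes, each from 0) in the 8 libraries by group (x axis), with dots for libraries and lines for the group means. The alpha sum is highest in the 4 libraries with vorinostat, at 2.40 to 4.25 CPM, and PCDHGC3 is highest in the 2 EC359 libraries, at 68.2 and 69.8 CPM.

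Each cluster was carried by few genes. Per kilobase of own exon, the vehicle level was 14.7 ± 0.778 CPM for PCDHGC3, 3.998 ± 0.371 for PCDHB2, 2.67 ± 0.198 for PCDHGA6, 1.70 ± 0.180 for PCDHGA7 and 1.10 ± 0.110 for PCDHGA9 (mean ± SD, n = 2). PCDHB9 at 0.793 ± 0.0699 and PCDHGB7 at 0.678 ± 0.171 followed on the same scale and did not differ beyond their spread. PCDHGB2 was at 0.404 ± 0.133. The remaining genes of the beta and gamma clusters in the annotation had vehicle levels of at most 0.229 CPM per kilobase, that of PCDHB14. The highest alpha gene in vehicle was PCDHA13, at 0.138 ± 0.117. Of the 15 alpha genes 7 had a read in vehicle, 7 with EC359 and 10 in each group with vorinostat. In the beta cluster these numbers were 13, 14, 15 and 11 of 18, and in the gamma cluster 18, 19, 20 and 18 of 22.

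**Figure D2:**
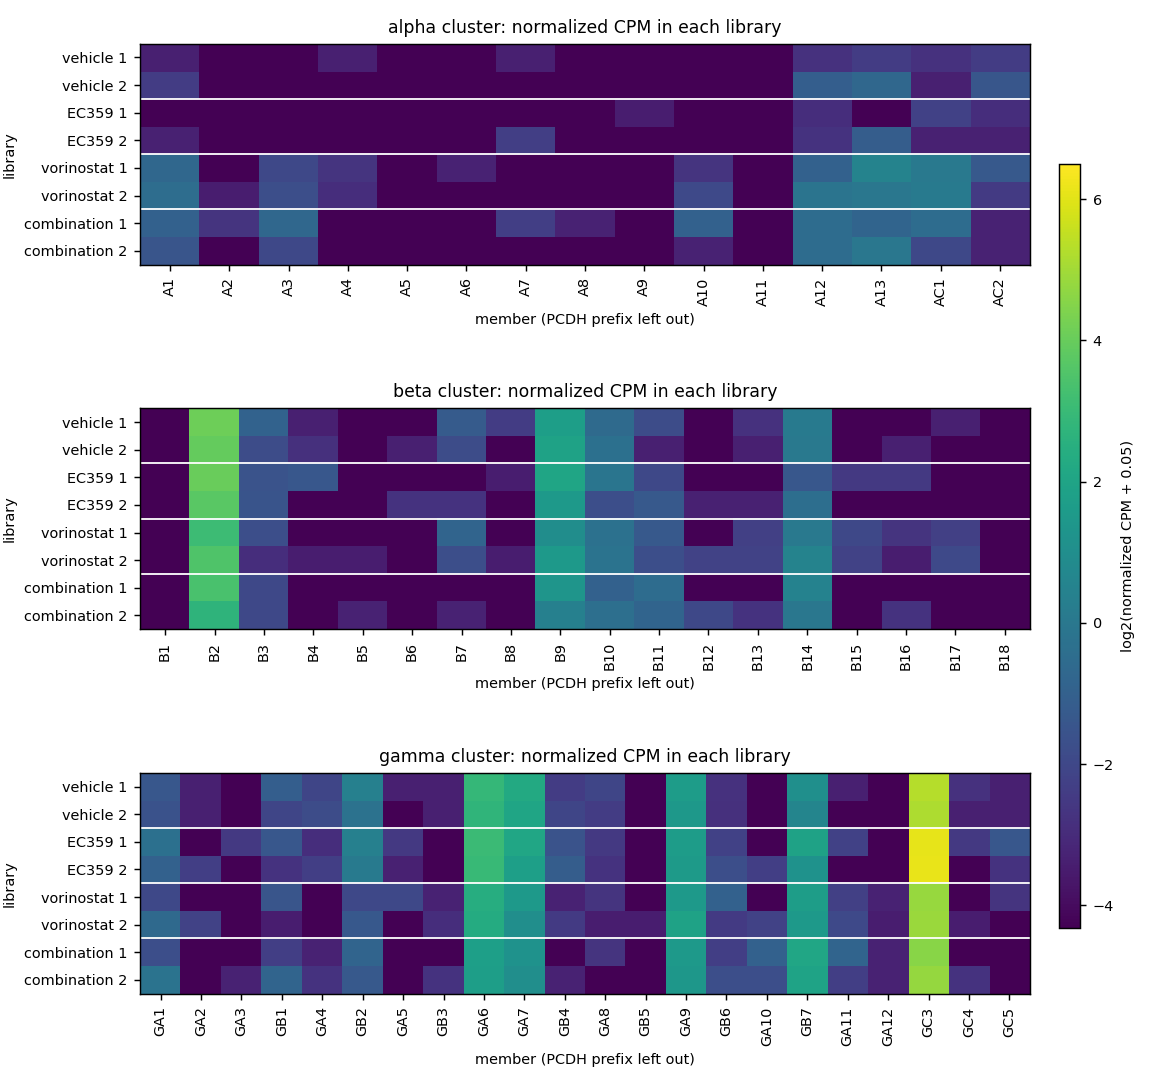
Level of all 55 genes as log2(normalized CPM + 0.05) (color) in the 8 libraries (rows), with alpha and beta genes in the order of their numbers and gamma genes in the order along the chromosome (columns). PCDHGC3, PCDHB2, PCDHGA6, PCDHGA7, PCDHB9, PCDHGA9 and PCDHGB7 stand out in every library, and the alpha genes A1, A3, A10, A12 and AC1 are brighter in the 4 lower rows, those with vorinostat.

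To ask which protocadherins responded to the HDACi, vorinostat was compared with vehicle. Calls needed an adjusted p below 0.01 in the quasi-likelihood test of edgeR (Benjamini-Hochberg, over 13694 genes) together with a log2 fold change beyond 1 in either direction, and all adjusted p-values given here come from that test unless another fit is named. By this rule 1 of the 16 protocadherins tested was higher and 0 lower, against 16.8% and 13.3% of all tested genes, and 30.1% in both directions together. At an unadjusted p under 0.05, 3 were higher and 5 lower, against 35.0% and 33.9% of all tested genes (69.0% in both directions), and DESeq2 called the same 1 gene. That gene was PCDHAC1, the first of the 2 C-type genes of the alpha cluster. It had 2 and 1 reads in the vehicle libraries, 4 and 1 with EC359, 19 and 25 with vorinostat, and 13 and 4 with the combination. The vorinostat libraries did not overlap those of vehicle or EC359, and 1 combination library lay at the level of the higher EC359 library in reads. All 3 of its libraries over the filter's minimum had vorinostat. The gene was thus tested through the libraries in which it was high, and its call is no independent support. The log2 fold change under vorinostat was 3.75 ± 0.83 (SE, adjusted p = 0.0033). It rests on few reads, and the call was lost without either vehicle library (4.28 and 3.34, adjusted p = 0.027 and 0.043), without either vorinostat library (3.80 and 3.67, adjusted p = 0.020 and 0.027) and it was not among the genes tested where 1 CPM in 2 libraries was required. With a library left out, the lone library of its group is assumed to vary like the others. Its log2 fold change with the combination was 2.53 ± 0.93 (adjusted p = 0.036), which was not called.

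Other alpha genes had reads mainly in the libraries with vorinostat, without being called. PCDHA1, the most upstream alpha gene, had 1 and 3 reads in vehicle, 0 and 1 with EC359, 11 and 16 with vorinostat, and 9 and 6 with the combination. The groups with and without vorinostat did not overlap. Its log2 fold change under vorinostat was 2.66 ± 0.79 (adjusted p = 0.015), and 1.96 ± 0.86 with the combination (adjusted p = 0.067). PCDHA12 had 2 and 9 reads in vehicle, 2 and 2 with EC359, 9 and 20 with vorinostat, and 13 and 13 with the combination. In CPM its vehicle and vorinostat libraries came close but did not overlap, at 0.0944 and 0.420 against 0.463 and 0.850 (log2 fold change 1.35 ± 0.69, adjusted p = 0.12). PCDHA13 had 3 and 12 reads in vehicle, 0 and 8 with EC359, 27 and 22 with vorinostat, and 10 and 18 with the combination, and the higher vehicle library overlapped the combination (1.70 ± 0.88 under vorinostat, adjusted p = 0.12). With only the vehicle and vorinostat libraries in the fit, 4 of 13 protocadherins tested were called, beside 33.97% of all genes tested there. They were PCDHAC1, PCDHA1 (2.68, adjusted p = 0.0020), PCDHA13 (1.70, adjusted p = 0.0093) and PCDHGB2 (-1.86, adjusted p = 0.0034). In the filter over all 8 libraries, PCDHAC1, PCDHA1 and PCDHA12 had 3, 2 and 3 libraries over the minimum, all with vorinostat. For PCDHA13 it was 4 of 5. These alpha genes were tested mainly through libraries in which they were high, and their calls are no independent support.

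Some alpha genes that did not pass the filter had reads only where vorinostat was given. PCDHA3 had no read in the 4 libraries without vorinostat, 4 and 6 with vorinostat, and 11 and 4 with the combination, and was at least 8.79-fold higher with vorinostat against a floor of 3 reads over those 4 libraries. PCDHA10 likewise had 0 reads without it, 2 and 5 with vorinostat, and 9 and 1 with the combination, at least 5.98-fold higher. These 2 were singled out after their values were seen. PCDHA2, PCDHA4, PCDHA6, PCDHA7, PCDHA8 and PCDHA9 had at most 7 reads over all libraries. PCDHAC2, the other C-type alpha gene, did not follow PCDHAC1. It had 3 and 7 reads in vehicle, 2 and 1 with EC359, 7 and 3 with vorinostat, and 1 and 1 with the combination, and its vehicle and vorinostat libraries overlapped.

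Over all 55 genes, 32 had 10 or more reads in total. Among these, the 4 libraries with vorinostat lay wholly above the other 4 for 5 genes, against 29.8% of all genes with as many reads, and wholly below for 6, against 25.0%. The 5 higher genes were PCDHA1, PCDHA3, PCDHA10, PCDHA12 and PCDHAC1, out of 7 alpha genes with that many reads. The 6 lower genes were PCDHB2, PCDHGA6, PCDHGA7, PCDHGB2, PCDHGB4 and PCDHGC3, of 10 beta and 15 gamma genes. No beta or gamma gene with as many reads was wholly higher, and no alpha gene was wholly lower. Yet PCDHA1, PCDHA3, PCDHA10 and PCDHAC1 had 5, 0, 0 and 8 reads without vorinostat. They reached the minimum of 10 only through the libraries with it. A gene so rare without vorinostat cannot both reach 10 reads and lie wholly below. The alpha counts were thus largely set by the read minimum and cannot compare the clusters. The difference between the clusters was not tested.

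In the beta cluster no gene was called in any comparison by edgeR or by DESeq2. The edgeR shares of all tested genes were 30.1% under vorinostat and 33.7% for the combination against EC359. They were 3.67% for EC359 and 4.25% for the combination against vorinostat. For the combination against vehicle they were 19.5% higher and 15.3% lower, and for the interaction 2.10%. At an unadjusted p under 0.05 1 of the 5 beta genes tested passed under vorinostat, beside 69.0% of all tested genes. In the combination 3 passed against vehicle, beside 71.7%, and 2 against EC359, beside 70.4%. Of the beta genes 0 passed for EC359, beside 30.9%, and 0 for the combination against vorinostat, beside 40.5%. PCDHB2 was the most abundant of them, with 17.4 and 15.3 CPM in vehicle, 16.3 and 13.0 with EC359, 8.38 and 11.5 with vorinostat, and 10.3 and 6.59 with the combination. All 4 libraries with vorinostat lay below the other 4, and vehicle and EC359 overlapped. Its log2 fold change was -0.71 ± 0.24 under vorinostat (adjusted p = 0.026) and -0.95 ± 0.24 with the combination (adjusted p = 0.0067), the latter past the p threshold and under the fold threshold. Scaled by total counts, the combination value was -1.03 (adjusted p = 0.0039), and without the first combination library -1.36 (adjusted p = 0.0042), both of which would be called.

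PCDHB9 had 3.26 and 3.69 CPM in vehicle, 4.04 and 2.74 with EC359, 1.95 and 2.76 with vorinostat, and 2.46 and 1.28 with the combination, and EC359 overlapped vorinostat. Its combination value was -0.89 ± 0.36 (adjusted p = 0.052). PCDHB11 ran in the other direction on few reads. It had 0.236 and 0.0467 CPM in vehicle and 0.665 and 0.511 with the combination, which did not overlap (2.02 ± 0.76, adjusted p = 0.040). Its 2 libraries over the filter's minimum were those of the combination, so PCDHB11 was tested only through the group in which it was high. PCDHB10 and PCDHB14 lay near vehicle under vorinostat, at log2 fold changes of 0.21 ± 0.58 and 0.24 ± 0.46. PCDHB14 had its lowest libraries with EC359, at 0.330 and 0.710 CPM against 1.04 and 0.981 in vehicle (-0.98 ± 0.50, adjusted p = 0.22).

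PCDHGC3, the first C-type gene of the gamma cluster and the most abundant clustered protocadherin in BT-549, was highest with EC359. It had 39.3 and 36.4 CPM in vehicle, 68.2 and 69.8 with EC359, 28.1 and 29.6 with vorinostat, and 23.8 and 27.9 with the combination. Both EC359 libraries lay above all others and both vehicle libraries above those with vorinostat, while vorinostat and the combination nearly touched. For EC359 against vehicle the log2 fold change was 0.87 ± 0.11 (adjusted p = 9.8e-04). No protocadherin was called in that comparison, against 3.67% of all tested genes, and PCDHGC3 was the 1 that passed the adjusted p alone, against 7.82%. At an unadjusted p under 0.05, 2 of 16 protocadherins passed, PCDHGC3 and PCDHGB7, beside 30.9% of all tested genes, and DESeq2 called 0 as well. Under vorinostat PCDHGC3 was at -0.39 ± 0.11 (adjusted p = 0.014), which missed the threshold.

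With both drugs PCDHGC3 did not keep the higher level seen with EC359. The combination was lower than EC359 alone by a log2 fold change of -1.42 ± 0.12 (adjusted p = 6.5e-06) and lower than vehicle by -0.55 ± 0.12 (adjusted p = 0.0022, under the fold threshold). Against vorinostat alone it was at -0.16 ± 0.12 (adjusted p = 0.34). To ask whether both drugs together gave another log2 change than EC359 and vorinostat added up, their interaction was tested, with the adjusted p alone as the rule. It was -1.02 ± 0.16 for PCDHGC3 (adjusted p = 0.0075), lower than the added changes, and this was the 1 protocadherin of 16 tested to pass, against 2.10% of all tested genes. That call was lost without either vehicle, either vorinostat or either combination library (-0.97 to -1.20, adjusted p = 0.018 to 0.057), and remained without either EC359 library. With the replicate number as a block it was also lost (-1.02, adjusted p = 0.015). The direction did not change in these fits. In each fit that lost the call, a smaller share of all tested genes passed than the 2.10% above. Without either EC359 library that share was larger. The loss or survival of the call therefore cannot be read as particular to PCDHGC3.

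Against EC359 alone the combination was lower in 2 protocadherins, beside 13.9% of all tested genes, with 33.7% called in either direction. They were PCDHGC3 and PCDHGA6. PCDHGA6, an A-subfamily gamma gene, had 7.36 and 6.63 CPM in vehicle, 8.37 and 7.81 with EC359, 5.30 and 5.02 with vorinostat, and 3.38 and 3.27 with the combination. None of the 4 groups overlapped, and the combination was lowest. The log2 fold change was -1.28 ± 0.18 against EC359 (adjusted p = 1.9e-04), -1.07 ± 0.18 against vehicle (adjusted p = 5.8e-04) and -0.63 ± 0.18 against vorinostat (adjusted p = 0.031). Against EC359 and against vehicle it was called in every alternative that could be fitted. Its interaction, at -0.84 ± 0.25, did not pass (adjusted p = 0.081). The adjusted p of that interaction ranged from 0.035 to 0.27 over the alternatives.

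Against vehicle 2 protocadherins were called lower with the combination, beside 15.3% of all tested genes, and 1 higher, beside 19.5%. The lower genes were PCDHGA6 and its neighbour PCDHGA7, and the higher gene was PCDHGB7, a B-subfamily gamma gene. PCDHGA7 had 4.72 and 4.06 CPM in vehicle, 4.25 and 3.40 with EC359, 2.83 and 2.00 with vorinostat, and 2.25 and 1.99 with the combination. The libraries with vorinostat lay below the others (combination against vehicle -1.05 ± 0.27, adjusted p = 0.0067, and vorinostat against vehicle -0.87 ± 0.26, adjusted p = 0.016). The first of these was lost without either vehicle library (-0.94 and -1.16) or either combination library (-1.18 and -1.01), at an adjusted p of 0.019 to 0.047.

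PCDHGB7 had 2.08 and 1.45 CPM in vehicle, 3.75 and 2.23 with EC359, 3.19 and 2.76 with vorinostat, and 4.15 and 3.88 with the combination. Vehicle was lowest and the combination highest, and EC359 overlapped vorinostat. The combination differed from vehicle by 1.18 ± 0.32 (adjusted p = 0.0088), while EC359 alone was at 0.77 ± 0.32 (adjusted p = 0.14) and vorinostat alone at 0.75 ± 0.32 (adjusted p = 0.067). Its call was lost without any 1 of the vehicle, vorinostat or combination libraries (0.94 to 1.46, adjusted p = 0.018 to 0.076) and with total counts (1.10, adjusted p = 0.011). PCDHGA6, PCDHGA7 and PCDHGB7 lie in 1 row of the gamma cluster and share its constant exons, and differed from vehicle in opposite directions. The comparisons with vehicle share the vehicle libraries.

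**Figure D3:**
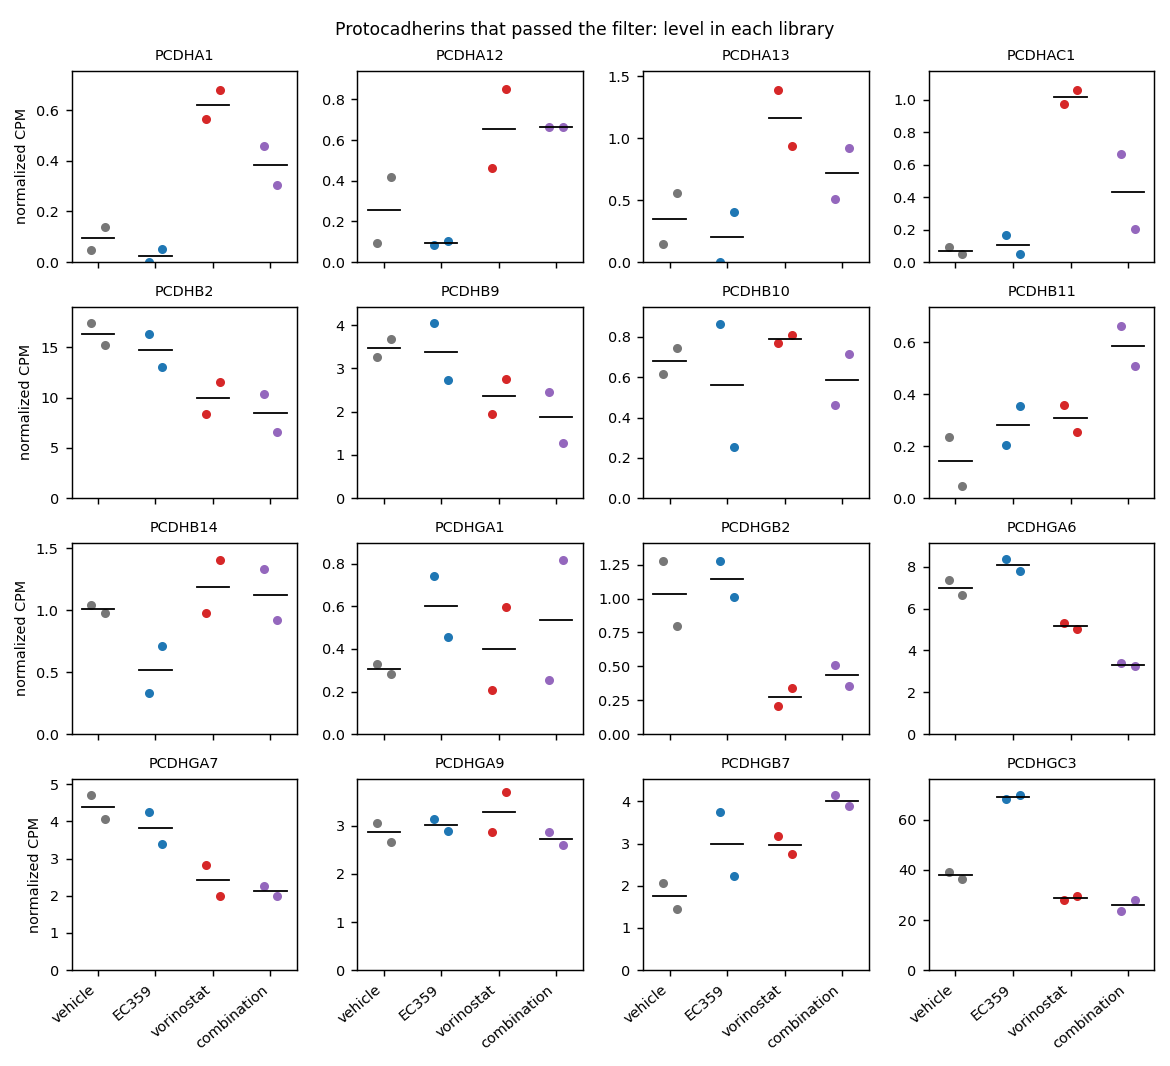
Normalized CPM (y axes, each from 0) of the 16 genes that passed the filter in each library by group (x axis), with dots for libraries and lines for the group means. PCDHGA6 falls from 6.63 to 7.36 CPM in vehicle to 3.27 to 3.38 in the combination, and PCDHGC3 is highest with EC359.

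Of the other gamma genes tested, PCDHGA9 showed no called difference, with log2 fold changes of 0.07 ± 0.25 (EC359), 0.20 ± 0.24 (vorinostat) and -0.07 ± 0.25 (both drugs) against vehicle. PCDHGB2 had 1.27 and 0.794 CPM in vehicle, 1.28 and 1.01 with EC359, 0.206 and 0.340 with vorinostat, and 0.512 and 0.358 with the combination. Groups with and without vorinostat did not overlap (vorinostat against vehicle -1.88 ± 0.54, adjusted p = 0.013). PCDHGA1 had 0.330 and 0.280 CPM in vehicle and 0.742 and 0.457 with EC359, and its vorinostat and combination libraries overlapped both. The remaining C-type genes were rare, with 9 reads in all for PCDHGC4 and 14 for PCDHGC5, of which 8 and 2 fell in the EC359 libraries. Adding EC359 to vorinostat called no protocadherin, against 4.25% of all tested genes. At an unadjusted p under 0.05 only PCDHGA6 of the 16 passed in that comparison, beside 40.5% of all tested genes, and DESeq2 called 0.

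**Figure D4:**
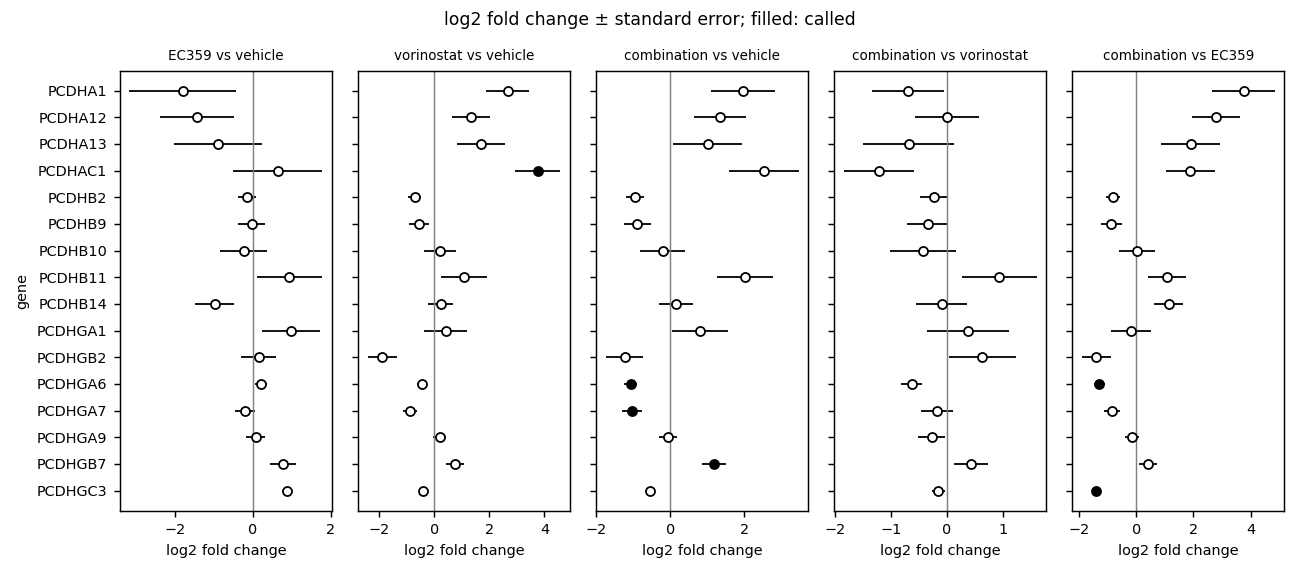
log2 fold change ± standard error (x axes, one scale per panel) of the 16 tested genes (y axis) in 5 comparisons, with filled dots for called genes. PCDHAC1 is filled under vorinostat at 3.75, PCDHGA6, PCDHGA7 and PCDHGB7 in the combination against vehicle, and PCDHGA6 and PCDHGC3 in the combination against EC359.

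Genes around the clusters and genes of their regulation were read from 5 lists, whose counts stand beside the 16.8% of all tested genes called higher and the 13.3% called lower under vorinostat. Of 14 nonclustered protocadherins, related adhesion genes that stand alone in the genome, 8 were tested and vorinostat called 4 higher and 1 lower (median log2 fold change 0.82, against 0.03 over all genes). PCDH1 went from 1.85 ± 0.219 CPM in vehicle to 38.3 ± 0.470 with vorinostat (4.36 ± 0.22, adjusted p = 6.0e-07). PCDH10 was at 3.09 ± 0.16 and PCDH17 at 3.04 ± 0.23, whereas PCDH18 was at -1.29 ± 0.12. Against these, the highest value of a clustered gene rested on 3 reads in vehicle. Of 16 neighbours of the clusters in the same band, 5q31, 11 were tested, with 3 called higher and 2 lower under vorinostat (median 0.22). PCDH1 belongs to this list too. HDAC3, a class I histone deacetylase encoded near the gamma cluster, went from 71.1 ± 4.22 CPM to 173 ± 4.79 (1.28 ± 0.09, adjusted p = 3.5e-06), RELL2 was at 1.21 ± 0.14 and KIAA0141 at -1.32 ± 0.11.

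Among 14 genes of CTCF and cohesin, all tested, vorinostat called 0 higher and 2 lower (median -0.71). These were STAG2, a cohesin subunit, at -1.77 ± 0.09, and PDS5B, a cohesin regulator, at -1.31 ± 0.14. CTCF itself, which anchors the promoter loops, went from 113 ± 6.75 to 60.9 ± 0.154 CPM (-0.89 ± 0.16, adjusted p = 8.4e-04), past the p threshold and under the fold threshold. Of 18 genes of DNA methylation and silencing, 1 was called higher and 4 lower (median -0.71). The DNA methyltransferases DNMT3A and DNMT1 were at -2.15 ± 0.18 and -1.11 ± 0.10, the heterochromatin protein CBX5 at -1.23 ± 0.10 and the demethylating enzyme TET2 at -1.42 ± 0.17, while DNMT3B was at 1.09 ± 0.17. SMCHD1 was at -0.56 ± 0.14 (adjusted p = 0.0071), under the fold threshold. Of 18 partners and effectors of the protocadherin tails, 3 were called higher and 4 lower (median -0.17), among them the receptor RET at 3.05 ± 0.43, the kinase FYN at 2.67 ± 0.17, the WNT inhibitor DKK1 at 1.69 ± 0.14 and NCKAP1, a subunit of the WAVE actin regulator, at -1.41 ± 0.11.

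Since clustered protocadherins are best known from neurons, markers of neurons and of other cell types were read beside them. The sum of 8 neuron markers was 55.1 to 55.8 CPM in vehicle and 44.2 to 50.9 with EC359. It was 170.5 to 179.7 with vorinostat and 158 to 163 with the combination. The sum was higher in every library with vorinostat than in those without, as was the alpha sum. So were 29.8% of all genes with 10 or more reads, and the 2 sums running alike is not particular to them. The neuron sum is described only. This sum was carried by the synaptic vesicle genes SYP, from 5.66 CPM in vehicle to 83.6 with vorinostat, and SYT1, from 33.4 to 72.1. STMN2 went from 0.094 to 2.77. Not all markers ran this way, as SNAP25 stood at 16.3 CPM in both groups and NEFL at 0.047 and 0.043. The defining neuronal genes RBFOX3, DCX and NEUROD1 had 10, 3 and 2 reads over all libraries. Sums of 7 epithelial markers were 3.40 to 4.53 CPM in vehicle, 7.55 to 8.62 with EC359 and 14.2 to 27.9 with vorinostat. The combination libraries stood apart from each other in this sum, at 3.58 in the first and 27.7 in the second. The 5 immune markers summed to at most 2.48 and the 4 endothelial markers to at most 1.28 CPM in any library. The 6 mesenchymal markers summed to 8824 CPM or more in every library, and of the receptor genes ESR1 and PGR had 47 and 1 reads in all. ERBB2, which encodes HER2, was at 96.1 and 102 CPM in vehicle and at 15.8 and 14.8 with vorinostat. The part of these markers in the protocadherin results was not tested.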

How the data were processed

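RNA-seq of BT-549 cells gave 8 libraries, 2 for each of 4 groups set by the treatment labels. The deposited values are raw read counts per gene. Per the labels and the study's methods, the authors sequenced 50 bp single-end reads from a TruSeq total RNA kit, aligned them to hg19 with TopHat2 2.0.8b and ran HTSeq on NCBI RefSeq genes. The version, mode and strand setting of HTSeq are not given in the sources used here, so reads of an antisense partner may be included, although no other listed gene overlapped the protocadherins' own exons in GENCODE. The 5 summary lines of HTSeq were left out of library sizes. Depth was 19069450 to 24759041 counts per library.

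Genes were filtered with filterByExpr in edgeR 4.0.16 (R 4.3.3; minimum count 10), scaled by TMM and fitted over the 8 libraries with 1 mean per group by the quasi-likelihood method, which tested 13694 genes with Benjamini-Hochberg adjustment. Calls needed an adjusted p below 0.01 and, except for the interaction, a log2 fold change beyond 1 in either direction. Standard errors were derived from the F statistic. The procedure was tested on simulated data. Alternatives comprised scaling by RLE or total counts, DESeq2 1.42.0, other filters and thresholds, fits on the compared groups, a replicate block and leaving out each library. Figures used Python 3.11.15 and matplotlib 3.10.9.

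The members, lists and markers were chosen with earlier results of these data known. Named were, per cluster, up to 6 tested members with the highest mean level, the highest and lowest log2 fold change in EC359, vorinostat, the combination against vorinostat and the interaction, called members and C-type genes. Each list gave up to 4 called genes with the largest change under vorinostat, plus CTCF, SMCHD1, HDAC3 and DNMT3B. HARS2 and other called list genes enter the counts only.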

Additional observations from a re-analysis of the deposited data

Results flagged for a closer look

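For 3 of the genes named here, the log2 effect of one drug differed with the other drug present, beside 2.10% of all tested genes. This was read from the interaction in the quasi-likelihood test of edgeR with Benjamini-Hochberg adjustment. The genes looked at were the 16 tested protocadherins and the genes named from the lists. PCDH18 and DKK1 were named for large changes under vorinostat, whose libraries also enter the interaction. The 3 genes therefore cannot be compared with that share. The PCDHGC3 call was lost in 7 of 15 refits, in each of which a smaller share of all tested genes passed. Refits are not given for the other genes. PCDHGC3 had an interaction of -1.02 ± 0.16 (adjusted p = 0.0075), with a change under EC359 of 0.87 in the absence of vorinostat and -0.16 in its presence. PCDH18, a nonclustered protocadherin, had 2.48 ± 0.17 (adjusted p = 1.3e-04), with 49.7 and 45.4 CPM in vehicle, 11.6 and 10.7 with EC359, 19.8 and 19.1 with vorinostat, and 24.5 and 26.6 with the combination. DKK1, a WNT inhibitor, had 1.37 ± 0.19 (adjusted p = 0.0046), with a change under EC359 of -1.62 without vorinostat and -0.25 with it. Groups of 2 libraries are too small to test a single library for standing apart.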

How the results depend on the processing

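An adjusted p under 0.05 gave 3 of 16 protocadherins for vorinostat against vehicle and 5 for the combination against vehicle and against EC359, beside 33.6%, 37.9% and 36.7% of all tested genes. Without the fold threshold there was 1 for EC359 against vehicle and 5 for the combination against vehicle, beside 7.82% and 56.4%. The filter at 1 CPM, which left 9 members to test, gave 0 under vorinostat (31.3% of all genes), and the fit on vehicle and vorinostat alone gave 4. Leaving out 1 library left 19 to 21 members to test. It changed the members called under vorinostat, for the combination against vehicle and against EC359, and for the interaction. The share of all tested genes called changed as well, so the numbers of members are not compared. PCDHA3 was gained in the combination against vehicle without either EC359 library. It had only 1 library over the filter's minimum, the first of the combination. PCDHA3 was thus tested in these fits through a library in which it was high, and its gain is no independent support. PCDHA13 and PCDHGA7 were gained against EC359 without the second EC359 library, and PCDHB2 in both comparisons without the first combination library. Total counts gave 3 for the combination against vehicle, with PCDHB2 in place of PCDHGB7. DESeq2 and RLE called the same members as TMM in all 6 comparisons.

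Leaving out 1 library turned the sign of 4 small fold changes, with ranges of -0.059 to 0.47 for PCDHB14 under vorinostat, and for PCDHGA9 of -0.019 to 0.19 under EC359, -0.0042 to 0.36 under vorinostat and -0.18 to 0.031 with the combination, and the cause was not tested. Over all printed fold changes, these 4 included, 468 refits kept direction and side of the threshold, 22 lost a call and 5 gained one. The fold changes not printed belong to members named here too, in other comparisons, and 61 of their refits changed sign. The summed alpha level with vorinostat was 4.29 CPM with RLE and 4.32 with total counts, and the gamma level 45.5 with total counts, each beyond the small SD of that group.

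No label says what a shared replicate number stands for. Deviations of same-numbered libraries correlated at -0.17 to 0.23 between groups, so the numbers were not taken as pairs. A replicate block gave 0 protocadherins for the interaction and, in the other comparisons, the same members as without it. In a block with the 2 combination numbers crossed, chosen after seeing the data, the 6 counts were 0, 1, 3, 0, 2 and 1, as without a block. Genes of a few reads, above all the alpha cluster, limit what could be detected at this depth.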
